A study of Mus musculus with 2 samples.

Results

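Retinoic acid synthesis, breakdown, binding and receptor genes were described across 2 DNase-seq libraries of mouse embryonic hindbrain. The 10 genes were listed by function, with no measured value in the rule, though earlier results of these data were known when they were chosen. The members are Aldh1a2 (synthesis), Dhrs3 (retinaldehyde reduction), Cyp26a1, Cyp26b1 and Cyp26c1 (breakdown), Crabp1 and Crabp2 (binding in the cytosol), and Rara, Rarb and Rarg (receptors). They are 10 of the 21851 protein-coding genes of the GENCODE M21 basic annotation, and all 10 were found in it. DNase-seq maps open chromatin by cutting nuclei with the nuclease DNase I and sequencing the released ends. Both libraries were made from healthy hindbrain tissue of B6NCrl embryos of both sexes, pooled, at embryonic day 11.5, with no treatment and no second group. The labels name them biological replicates 1 and 2, from separate tissue samples. For each of them the authors called peaks, every one 150 bp wide with a height, and hotspots, which are broader regions of enriched cutting with the −log10 of a false discovery rate.

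Retinoic acid is made from vitamin A in steps: retinol is oxidised to retinaldehyde, and retinaldehyde dehydrogenases oxidise that to retinoic acid. The acid crosses into neighbouring cells, where binding proteins carry it, CYP26 enzymes oxidise it for removal, and nuclear receptors bound to DNA as pairs with retinoid X receptors change the transcription of target genes. In the hindbrain, acid from the adjoining mesoderm and local breakdown by CYP26 enzymes are known to pattern the rhombomeres and to set Hox gene boundaries.

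The receptor pairs bind direct repeats of a 6-base motif, the hexamer. It was searched as AGGTCA and also as its variant AGTTCA, as the variant GGGTCA and as the combined form GGTTCA, on both strands, and the spacings of 1, 2 and 5 bases known from response elements were kept, spacing 5 being the classical form. Of 5865 repeats of spacing 5 within 100 kb of a start of any gene, 10 had a member as nearest gene: 4 Cyp26a1, 2 Rarb, and 1 each Dhrs3, Cyp26b1, Rara and Rarg. Hotspots of replicate 2 held 4 of these 10, against 5.3% of all such repeats, and hotspots of replicate 1 held 1, against 2.4%. The windows printed here are 30 bases long, 5′ to 3′ on the strand of the repeat, with the hexamers in capitals, and are shown because they are the members' repeats of spacing 5 that lay in a hotspot. All 4 lay within 2 kb of a member's start. The first window lies at chr19:37695903-37695932 (+), the second at chr19:37697769-37697798 (−), the third at chr11:98960002-98960031 (+) and the fourth at chr14:16575506-16575535 (−), in mm10.
Cyp26a1 upstream repeat: ctgcagGGGTCAcaggcGGGTCAggctaaa
Cyp26a1 start repeat: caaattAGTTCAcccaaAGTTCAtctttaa
Rara repeat: caggcgAGTTCAgcaagAGTTCAgccgaat
Rarb repeat: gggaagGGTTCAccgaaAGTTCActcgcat

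The Rarb repeat was the one found in a hotspot of both libraries. It is centred 22 bp inside the GENCODE start of Rarb and 45 bp upstream of the RefSeq start. The replicate 1 peak of height 106 overlaps it, and the replicate 2 peak of height 129 begins 7 bp away. The other 3 were in open chromatin of replicate 2 alone. The repeat at the Cyp26a1 start is centred 14 bp upstream of it, and its edge lies 24 bp from a replicate 2 peak of height 91. The upstream one is centred 1881 bp before that start, and its edge lies 31 bp from a replicate 2 peak of height 72. The Rara repeat, 396 bp upstream of the last GENCODE start of Rara and 4856 bp upstream of a RefSeq start at 98964872, lies inside a replicate 2 peak of height 92, while the closest replicate 1 peak, of height 82, is 272 bp away. A match to these letters is a description of the sequence and not a bound site.

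Other spacings from 0 to 8 gave further repeats in open chromatin. Of 11 member repeats of spacing 2, 1 lay in a hotspot of replicate 2, against 2.06% of 19472 such repeats near any gene. Of 11 member repeats of spacing 1, 1 did, against 7.46% of 11653. Replicate 2 hotspots also held 3 of 10 member repeats of spacing 0 (2.91% of all such repeats), 1 of 2 of spacing 4 (4.37%), 1 of 5 of spacing 7 (4.26%) and 1 of 6 of spacing 8 (5.34%), but 0 of 2 of spacing 3 (6.14%) and 0 of 3 of spacing 6 (5.74%). The repeats of spacing 2 and 1 are shown for the binding protein genes. The spacing 2 repeat lies 1134 bp upstream of the Crabp2 start, at chr3:87947517-87947546 (+), and overlaps a replicate 2 peak of height 94. The spacing 1 repeat lies 4925 bp upstream of the Crabp1 start, at chr9:54759808-54759837 (−), 32 bp from a replicate 2 peak of height 76. Each also lay in a hotspot of replicate 1. Over all genes, 0.842% of repeats of spacing 2 and 3.36% of those of spacing 1 lay in hotspots of both libraries. This was not particular to the binding protein genes or these spacings: 1 member repeat each of spacings 0, 4, 5 and 8 did so too.
Crabp2 repeat: aagtccccAGTTCAccAGGTCAgggctgcc
Crabp1 repeat: aagaatggGGGTCAgAGTTCAgtccccgaa

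The libraries differ in size. Replicate 1 gave 150176 analysed peaks with a median height of 36 and hotspots over 44.7 Mb, and replicate 2 gave 194873 peaks with a median height of 50 and hotspots over 73.7 Mb. How the height was scaled is not stated, and depth is unknown, so heights are read within a library, by their percentile among all its peaks. Peaks of the libraries that overlapped were merged into 231068 sites, where 42.3% had peaks from both (here called shared) and 38.0% had replicate 2 peaks alone. Of the hindbrain markers, 8 of 10 had a shared site within 1 kb of a start and all 10 had a replicate 2 peak there. All 6 neural progenitor and all 6 neuronal markers had a shared site, as did 9 of 10 markers of meninges and mesenchyme, 5 of 6 forebrain, 3 of 6 somite and muscle, 3 of 6 erythroid, 1 of 6 endothelial and 1 of 6 myeloid markers. The endothelial markers Cdh5, Pecam1, Tie1, Tek and Emcn and the myeloid markers Spi1, Csf1r, Cx3cr1, Aif1 and C1qb had no promoter peak in either library. The part of other cell types in the results that follow was not tested. In bulk tissue, a site open in few cells and a site weakly open in many cannot be told apart.

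Promoters of the 10 genes were open in replicate 2 without exception, and 8 of 10 were also open in replicate 1. A promoter peak is one within 1 kb of an annotated start. Over all genes, 65.9% had a promoter site in both libraries, 67.1% had a promoter peak in replicate 1 and 69.5% had one in replicate 2. The exceptions were Cyp26a1 and Cyp26c1, both breakdown enzymes and neighbours on chromosome 19, which had a promoter peak in replicate 2 and none in replicate 1. That pattern was found for 3.08% of all genes, and the opposite pattern, found for 0.677%, for 0 of the 10. Cyp26b1 is among the 8 through its downstream GENCODE starts. At its upstream start, where its RefSeq start lies, replicate 1 had no peak. Where a promoter was open it was usually not among the highest: 3 of 8 members were above the median of all genes with a peak in replicate 1 (height 100), and 2 of 10 in replicate 2 (height 126). With 2 libraries of 1 group, no test across samples was possible, and these counts and values carry no p-value.

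**Figure D1:**
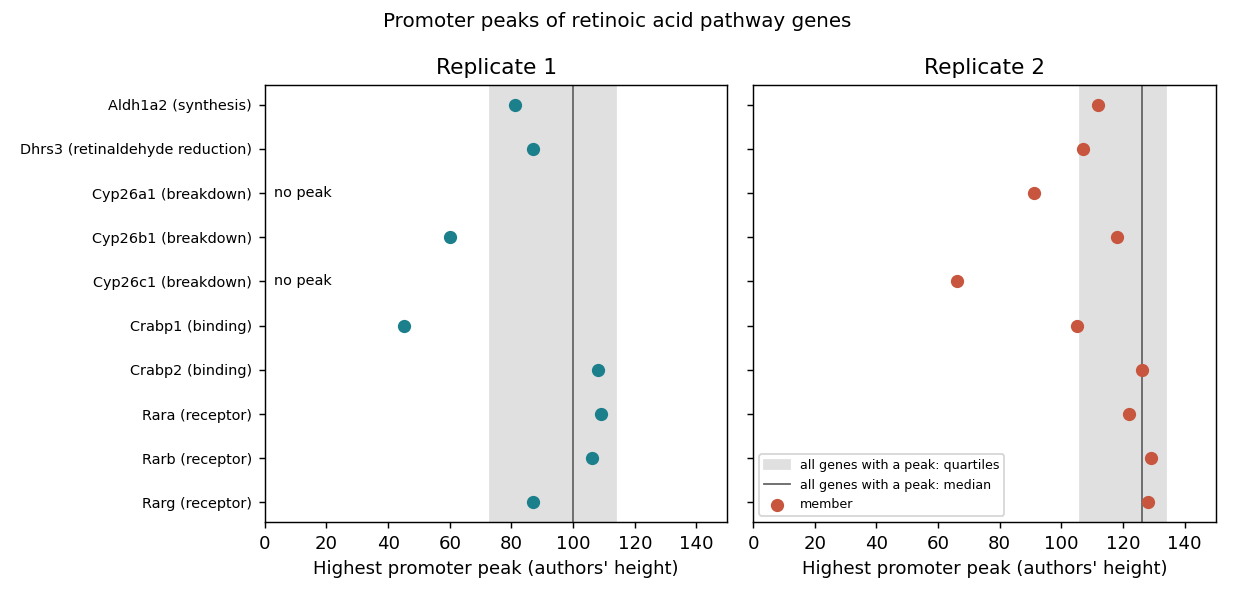
Height of the highest promoter peak of each of the 10 genes (x axis, the authors' height) in replicate 1 (left) and replicate 2 (right). Points are single genes, the grey band and line are the quartiles and median over all genes with a promoter peak, and Cyp26a1 and Cyp26c1 have no peak in replicate 1.

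The plot of promoter heights orders the genes differently in each library. In replicate 1 the order from the top was Rara (109), Crabp2 (108), Rarb (106), then Dhrs3 and Rarg (87 each), Aldh1a2 (81), Cyp26b1 (60) and Crabp1 (45). In replicate 2 it was Rarb (129), Rarg (128), Crabp2 (126), Rara (122), Cyp26b1 (118), Aldh1a2 (112), Dhrs3 (107), Crabp1 (105), Cyp26a1 (91) and Cyp26c1 (66). The receptors and Crabp2 thus took the top 4 places in replicate 2, and Cyp26c1 the last. Each place rests on 1 value per gene and library, so the order of neighbours has no error attached.

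Aldh1a2 encodes the dehydrogenase that makes most retinoic acid of the early embryo. The gene (ENSMUSG00000013584.5, chr9:71215789-71296243, + strand) has 1 start. Its highest promoter site, at chr9:71215256-71215425 just upstream of the start, had a height of 81 in replicate 1 (percentile 88.5) and 112 in replicate 2 (percentile 92.1). A shared promoter site in a coding exon had heights of 44 and 100, so the libraries differed more there than upstream. Aldh1a2 had 4 distal shared sites, 1 distal site in replicate 1 alone and 7 in replicate 2 alone. A distal site lies more than 1 kb and at most 100 kb from the nearest protein-coding start, and is given to that gene, which need not be the gene it acts on. Here and below, the highest distal shared site of a gene is the one with the highest mean percentile over both libraries. Base composition set this promoter apart from the others: 71.2% of the 1001 bases around the start are G or C, the highest of the 10, and its observed-to-expected CpG ratio of 0.929 was also the highest.

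The highest distal shared site of Aldh1a2, with heights of 44 and 88, lies in an intron at chr9:71217016-71217205, inside the replicate 2 hotspot that spans the start. In replicate 1 alone another of its sites, at chr9:71210996-71211185, was higher, with heights of 49 and 61. The intron site is printed for the synthesis gene, on the + strand, with CAGCTG, an E-box bound by basic helix-loop-helix factors, in capitals.
Aldh1a2 intron site: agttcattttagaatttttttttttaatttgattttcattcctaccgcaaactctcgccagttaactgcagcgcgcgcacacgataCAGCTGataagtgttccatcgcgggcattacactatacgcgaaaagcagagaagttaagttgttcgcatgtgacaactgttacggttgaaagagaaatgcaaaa

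Dhrs3 encodes a reductase that turns retinaldehyde back to retinol and so limits synthesis. By the percentile of the highest promoter peak it was the member with the closest match between the libraries. That site, at chr4:144892276-144892445, had heights of 87 (percentile 90.9) and 107 (percentile 90.5). Crabp2 (96.5 and 95.8) and Rarb (96.0 and 96.7) were nearly as close. Other promoter sites of Dhrs3 differed more, with percentiles of 45.5 and 74.6 in one and of 23.2 and 66.0 in another. The gene (ENSMUSG00000066026.14, chr4:144892827-144928209, + strand) had 4 shared promoter sites, 3 in replicate 1 alone and 0 in replicate 2 alone. It also had 9 distal shared sites, 0 distal sites in replicate 1 alone and 6 in replicate 2 alone. Thus 60% of its distal sites were shared, more than in any other role group, beside 55086 of 135935 over all genes. Its direct repeat of spacing 5 lies in an intron at chr4:144898375-144898391, outside the hotspots of both libraries and 1790 bp from the closest peak of either. The site printed here is its highest distal shared one, at chr4:144890736-144890885 on the + strand, with heights of 74 and 87. It lies 1942 bp upstream of the start, and none of the motifs searched was found in it.
Dhrs3 upstream site: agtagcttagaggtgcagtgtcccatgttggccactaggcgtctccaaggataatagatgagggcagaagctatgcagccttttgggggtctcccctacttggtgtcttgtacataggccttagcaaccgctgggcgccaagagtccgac

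The breakdown enzymes were the group with the smallest share of shared sites, close to the receptors at distal sites. CYP26A1, CYP26B1 and CYP26C1 are cytochrome P450 enzymes that oxidise retinoic acid, and Cyp26a1 is a textbook target that retinoic acid itself switches on through receptor elements upstream of the gene. Together the 3 genes had 17 promoter sites, of which 4 were shared, all of Cyp26b1, and 13 held replicate 2 peaks alone. Of their 59 distal sites, 13 were shared, 5 held replicate 1 peaks alone and 41 replicate 2 peaks alone. The shared share of 22.0% was the lowest of the role groups, with the receptors next at 25%. Over all genes, 55086 of 135935 distal sites were shared.

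At Cyp26a1 (ENSMUSG00000024987.6, chr19:37697798-37701536, + strand), replicate 2 had 3 promoter peaks with heights of 79, 88 and 91. Replicate 1 had no peak and no hotspot at these 3. The replicate 2 peaks are part of a hotspot of 4447 bp, chr19:37695176-37699622, which holds 9 peaks with heights from 68 to 91. Not 1 of the 9 overlaps a replicate 1 peak, and replicate 1 hotspots cover 0% of it. Both repeats of spacing 5 near the Cyp26a1 start lie inside this hotspot. The 240 bases that precede the GENCODE start, from the RefSeq promoter at chr19:37697558-37697797 (GRCm38.p6, + strand), are printed to show the start repeat, which reads on the opposite strand, in its place close to the start.
Cyp26a1 promoter: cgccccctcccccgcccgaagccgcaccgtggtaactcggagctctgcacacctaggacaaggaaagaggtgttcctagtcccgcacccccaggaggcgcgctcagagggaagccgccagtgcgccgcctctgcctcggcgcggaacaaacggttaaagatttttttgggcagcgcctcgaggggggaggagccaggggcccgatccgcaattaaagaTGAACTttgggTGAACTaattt

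Sites farther from the Cyp26a1 start were found in both libraries. It had 5 distal shared sites, of which the highest, at chr19:37693036-37693185, had heights of 59 and 108 and lies 4613 bp upstream of Cyp26a1, in a coding exon of Cyp26c1. On the other side, a site 6218 bp downstream of the start had heights of 57 and 84. Sites found in replicate 1 therefore flank the 4447 bp hotspot without a replicate 1 peak inside it. Another repeat of spacing 5 lies 91678 bp downstream of the start, in a replicate 2 site of height 29 at chr19:37789356-37789545, and it is in no hotspot. Replicate 1 has no peak there, and its closest peak, of height 26, is 972 bp away. The site is printed on the + strand with the hexamers in capitals.
Cyp26a1 downstream site: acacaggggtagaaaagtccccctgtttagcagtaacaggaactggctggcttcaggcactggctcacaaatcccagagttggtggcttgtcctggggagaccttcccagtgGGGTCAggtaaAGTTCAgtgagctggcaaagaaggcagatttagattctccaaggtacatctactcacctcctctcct

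Cyp26c1 (ENSMUSG00000062432.4, chr19:37685581-37693398, + strand) starts 12217 bp upstream of Cyp26a1. Replicate 2 had 5 promoter peaks there, with heights of 51, 52, 54, 61 and 66, and replicate 1 had none, nor a hotspot at any of the 5. The highest of these is at percentile 66.0 of replicate 2 peaks, the lowest place of the 10 genes. Cyp26c1 also was the member whose start lay in no hotspot of either library. Its 4 distal shared sites included 2 in its own coding exons, of which chr19:37690876-37691065 was the highest, with heights of 67 and 103. No direct repeat of spacing 1, 2 or 5 had Cyp26c1 as its nearest gene.

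Cyp26b1 (ENSMUSG00000063415.12, chr6:84571414-84593908, − strand) had an open promoter in both libraries at its downstream GENCODE starts, with a lower rank in replicate 1. Its highest promoter site, at chr6:84588976-84589165, had heights of 60 (percentile 76.6) and 118 (percentile 93.8). The annotated starts of Cyp26b1 differed: at the 3 downstream starts, 84587680, 84588005 and 84588638, the highest peak within 1 kb was 58, 60 and 60 in replicate 1 and 97, 97 and 118 in replicate 2. At the upstream start near 84593908, replicate 2 had a peak of height 83 and replicate 1 had none. The only RefSeq start of Cyp26b1, 84593810, lies there. In replicate 2 the downstream starts share a hotspot of 7533 bp with 16 peaks, 6 of which overlap a replicate 1 peak. Replicate 1 hotspots cover 16.3% of it. The highest distal shared site of Cyp26b1, also the highest of the breakdown group, had heights of 82 and 120 at chr6:84590356-84590525, higher than the promoter site in both libraries. It is printed on the − strand, and none of the motifs searched was found in it.
Cyp26b1 intron site: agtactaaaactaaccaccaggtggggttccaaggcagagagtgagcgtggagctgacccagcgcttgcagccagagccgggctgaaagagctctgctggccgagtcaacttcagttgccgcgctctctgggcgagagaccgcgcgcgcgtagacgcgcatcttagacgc

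The binding protein genes were open in both libraries, Crabp2 far more than Crabp1 in replicate 1. CRABP1 and CRABP2 are small cytosolic proteins that bind retinoic acid, and CRABP2 is known to hand it to the receptors in the nucleus. Crabp2 (ENSMUSG00000004885.5, chr3:87948666-87953376, + strand) had 4 promoter sites, all shared. The one at chr3:87947976-87948125 had heights of 108 (percentile 96.5) and 123, and the one over the start had heights of 64 and 126 (percentile 95.8). Crabp1 (ENSMUSG00000032291.8, chr9:54764748-54773110, + strand) had 3 shared promoter sites and 1 in replicate 2 alone. The site over its start had heights of 42 and 105, and the highest replicate 1 promoter peak, of height 45 (percentile 63.2), was in a site 988 bp from the start. Crabp1 thus had the lowest promoter peak of the 8 members with one in replicate 1, and its replicate 2 peak was at percentile 89.7.

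Distal sites of Crabp2 were packed closely. It had 7 distal shared sites, 3 in replicate 1 alone and 5 in replicate 2 alone, and all 7 shared ones lay within 10 kb of its start. Its neighbourhood, the stretch for which it is the nearest gene, is 18.3 kb long, so this equals 38.3 distal shared sites per 100 kb, against a median of 2.42 over all genes and a percentile of 99.4 among them. That density depends on how sites are counted: 6 of the 7 lie in 1 replicate 2 hotspot of 6109 bp, and the 7 became 2 with a promoter window of 2500 bp and 1 with hotspots counted in place of peaks. Crabp1 had 4 distal shared sites in 62.6 kb, with 1 within 10 kb. The highest distal shared site of Crabp2, with heights of 52 and 87, is in an intron at chr3:87950216-87950385 and is printed on the + strand with CAGCTG in capitals. In replicate 2 alone another, at chr3:87949696-87949985, was higher, with heights of 41 and 94.
Crabp2 intron site: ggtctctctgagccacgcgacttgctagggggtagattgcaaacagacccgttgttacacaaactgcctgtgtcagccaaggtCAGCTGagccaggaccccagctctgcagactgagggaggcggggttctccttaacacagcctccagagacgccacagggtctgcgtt

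The receptor genes had promoter peaks in both libraries, and at Rara and Rarg, but not Rarb, the libraries differed in which starts had a peak. RARA, RARB and RARG are nuclear receptors, each gene makes isoforms from more than 1 promoter, and Rarb is known to be induced by retinoic acid through the repeat at its promoter. Rara had the largest number of sites of the 10 genes, 58. Together the receptors had 8 shared promoter sites, 5 in replicate 1 alone and 12 in replicate 2 alone. Of their 76 distal sites, 19 were shared, 6 held replicate 1 peaks alone and 51 replicate 2 peaks alone.

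Rara (ENSMUSG00000037992.16, chr11:98927818-98974942, + strand) was read at 4 start positions, after starts closer than 200 bp were joined. At the most upstream, 98927818, the highest peak had heights of 41 in replicate 1 and 86 in replicate 2. At 98937698 to 98937718 the heights were 109 and 121, the highest promoter site of the gene by mean percentile (chr11:98937536-98937725). At 98939711 replicate 1 had no peak and replicate 2 one of height 48. At the most downstream start, 98960412, the heights were 82 and 122. In both libraries the most upstream start was thus lower than the second and the last.

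Around the last Rara start, replicate 2 had a hotspot of 8195 bp (chr11:98959431-98967625), the widest at any member's start. It holds 15 peaks, of which 4 overlap a replicate 1 peak, and replicate 1 hotspots cover 12.0% of it. The Rara repeat of spacing 5 is in it, in a site that replicate 1 lacks, between 2 promoter sites that were shared, with heights of 67 and 101 in one and of 82 and 122 in the other. The site with the repeat is at chr11:98959896-98960045, intronic to longer Rara transcripts, and is printed on the + strand with the hexamers in capitals.
Rara promoter site with the repeat: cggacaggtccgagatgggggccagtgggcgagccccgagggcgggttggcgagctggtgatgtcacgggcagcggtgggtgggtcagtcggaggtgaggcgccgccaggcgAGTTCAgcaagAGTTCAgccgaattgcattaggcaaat

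Rara also had the most distal sites: 12 shared, 3 in replicate 1 alone and 29 in replicate 2 alone. All 12 shared ones lay within 10 kb of a Rara start, in a neighbourhood of 45.7 kb with little room beyond that distance. Their density of 26.3 per 100 kb is at percentile 98.5 of all genes. The highest, chr11:98968756-98968925, is intronic and had heights of 87 and 120, at percentiles 90.9 and 94.3. It is printed on the + strand, with TGATTGA and TGACAG in capitals, motifs bound by TALE homeodomain proteins such as PBX and MEIS that work with Hox proteins in the hindbrain.
Rara intron site: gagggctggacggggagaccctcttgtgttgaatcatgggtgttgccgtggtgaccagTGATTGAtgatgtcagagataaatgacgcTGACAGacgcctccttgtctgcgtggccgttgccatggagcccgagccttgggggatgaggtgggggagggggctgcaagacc

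Rarb (ENSMUSG00000017491.9, chr14:16430839-16819156, − strand) had a single shared promoter site, at chr14:16575516-16575685, with heights of 106 (percentile 96.0) and 129 (percentile 96.7). This was the highest promoter peak of the 10 genes in replicate 2. Of the Rarb starts, only the protein-coding ones of the basic annotation, 16575543 and 16575827, were read, though the gene reaches upstream to 16819156. The site serves both, and a noncoding gene, Gm48162, overlaps it, whose part in the signal was not tested. Its 5 distal shared sites were low: the highest, intronic at chr14:16554716-16554905, had heights of 31 and 66, at percentiles 41.3 and 66.0, the lowest such pair of the 10 genes. In replicate 1 alone another, at chr14:16572816-16572985, was higher, with heights of 35 and 47. A second Rarb repeat of spacing 5, at chr14:16586251-16586267, was in no hotspot of either library.

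Rarg (ENSMUSG00000001288.15, chr15:102234938-102257517, − strand) had 2 starts that differed between libraries. At the downstream start, 102246500, the highest peak had heights of 87 (percentile 90.9) and 128 (percentile 96.4). At the upstream start, 102257517, replicate 2 had 4 peaks, the highest of 89, and replicate 1 had none. Rarg had 2 distal shared sites, the fewest of the 10 genes, 1 in replicate 1 alone and 11 in replicate 2 alone. Its neighbourhood is 20.8 kb long, so the shared ones equal 9.61 per 100 kb, at percentile 87.5 of all genes. The higher shared one, with heights of 74 and 104, is in a coding exon at chr15:102239336-102239485. Its repeat of spacing 5, at chr15:102250817-102250833, was in no hotspot.

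**Figure D2:**
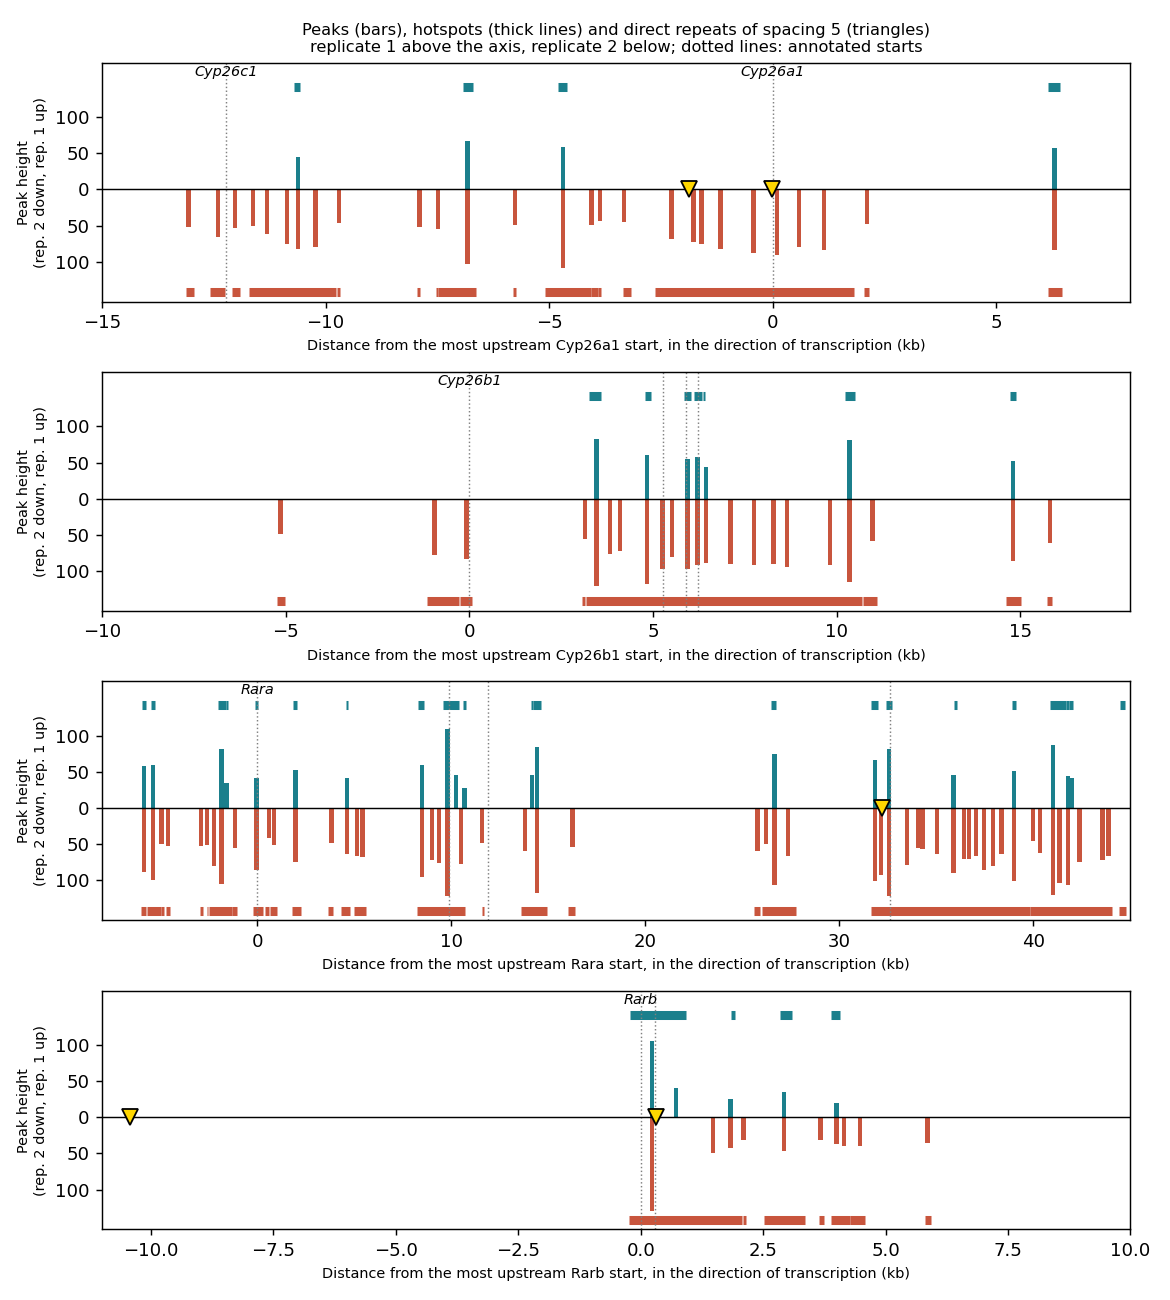
Peaks of replicate 1 (bars up) and replicate 2 (bars down) by the authors' height, against the distance in kb from the most upstream start of Cyp26a1 (with Cyp26c1), Cyp26b1, Rara and Rarb, in the direction of transcription. Thick lines are hotspots, dotted lines annotated starts and triangles repeats of spacing 5. Replicate 1 has no bar within the Cyp26a1 hotspot of 4447 bp, and the Rarb start has one in each library.

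The maps of the 4 loci show that replicate 1 peaks mostly fell where replicate 2 also had one, and that replicate 2 had further peaks between them. Over the 10 genes, 247 sites were counted, 61 at promoters and 186 distal. No site was given to more than 1 gene, and none of the 247 lay within 1 kb of a start of another protein-coding gene. Of these, 81 were shared, 32.8% against 42.3% of all sites. Another 141 held replicate 2 peaks alone, 57.1% against 38.0% of all sites, and 25 held replicate 1 peaks alone. By raw height, 79 of the 81 shared sites were higher in replicate 2, 1 was higher in replicate 1 and 1 was equal. The median heights over all peaks were 50 in replicate 2 and 36 in replicate 1, with no known common scale. The same count was not made over all shared sites, so it shows no trait of the members. By percentile, sites went both ways: at Aldh1a2, chr9:71210996-71211185 was at 67.4 in replicate 1 and 61.9 in replicate 2, and chr9:71217016-71217205 at 62.1 and 80.9.

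**Figure D3:**
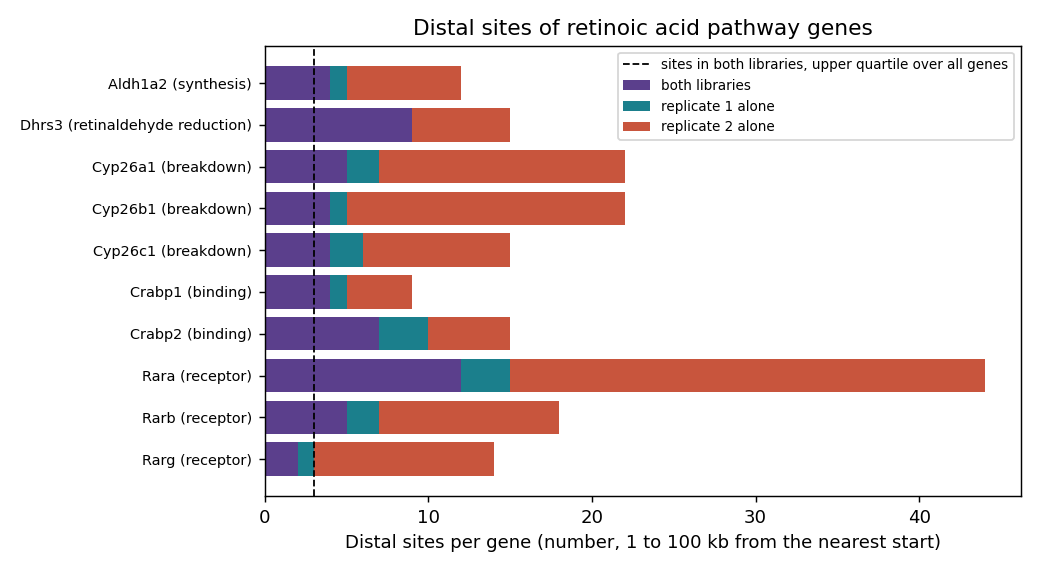
Number of distal sites of each of the 10 genes (x axis), as stacked bars for sites in both libraries, in replicate 1 alone and in replicate 2 alone. The dashed line is the upper quartile of shared distal sites over all genes (3), which every member except Rarg passes, and the segment for replicate 2 alone is longest in Rara (29).

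Distal shared sites were found at all 10 genes, against 63.7% of all genes, and 9 of 10 genes had at least 4, against 24.1%. The count of 9 fell under other settings: 5 of 10 (21.2% of all genes) with a promoter window of 2500 bp, 6 of 10 (21%) with hotspots in place of peaks and 3 of 10 (12.2%) with peaks above the median height, where Rarb had 0 sites. The sum was 56, with a median of 4.5 per gene and a range of 2 to 12, beside a median of 1 over all genes (quartiles 0 and 3). The members' neighbourhoods were also longer, with a median of 87.9 kb beside 44.9 kb over all genes. Per 100 kb the median was 5.77 beside 2.42, and 9 of 10 members were above the latter. By this density Cyp26b1, Rarb and Aldh1a2 were at percentiles 46.3, 51.1 and 57.7 of all genes. By role, the counts were 4 for synthesis, 9 for retinaldehyde reduction, 13 for breakdown, 11 for binding and 19 for the receptors. A further 114 distal sites held replicate 2 peaks alone: 9 of 10 genes had at least 5 such sites, against 17.7% of all genes, and 7 of 10 had more of them than shared ones, against 29.2%. The plot of distal sites shows the exceptions, Dhrs3 and Crabp2 with more shared ones and Crabp1 with 4 of each.

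These distal shared sites lay near the starts. Their median distance was 4561 bp, and 41 of 56 (73.2%) were within 10 kb, while over all genes the median was 19477 bp and 33.1% were within 10 kb. Not all members shared this: 1 of the 4 of Crabp1 and 2 of the 5 of Cyp26a1 were within 10 kb. The nearest-gene rule bounds the distances. Crabp2, Rara and Rarg, with all their distal shared sites within 10 kb, have neighbourhoods of 18.3, 45.7 and 20.8 kb, which leave little room farther out. How far this sets the distances was not tested. The 5 distances at Cyp26a1 were 4613, 6218, 57678, 92658 and 92978 bp. Of the 56, introns held 30, intergenic sequence 18, coding exons 5 and UTRs 3. Their median heights were 42.5 in replicate 1 and 82 in replicate 2, beside 43 and 67 over all distal shared sites. Distal sites of the members in replicate 2 alone also had a higher median than all such sites, 54 against 39.

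Among motifs counted in the central 150 bp of the 56 sites, CAGCTG was in 17 (30.4%), beside 15.5% of all distal shared sites, and GGGCGG, bound by Sp factors, in 13 (23.2%), beside 9.97%. Over the 186 distal sites of either library the shares were closer to all such sites, 16.7% beside 14.9% for the E-box and 12.9% beside 7.37% for the Sp motif. At the 25 shared promoter sites the E-box was in 2, 8% beside 9.65%. Among the 56 distal shared sites, the Sox motif ACAAAG was in 5 (8.93%), beside 15.6%, and ACAATG in 1 (1.79%), beside 8.95%. Over the 186 sites the shares of these Sox motifs were 15.1% beside 15.3% and 5.91% beside 8.85%. TGACAG was in 10 of the 56 (17.9%), beside 12.8%, but in 13.4% of the 186, beside 13.5%. TGATTGA was in 2 of the 56 (3.57%), 1 each of Crabp1 and Rara, beside 1.64%. In RefSeq promoters of 300 bases, 32 of 32851 (0.0974%) held a repeat of spacing 5. Among these were those of Cyp26a1 and Rarb, 2 of the 15 promoters of the 9 members with an entry.

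**Figure D4:**
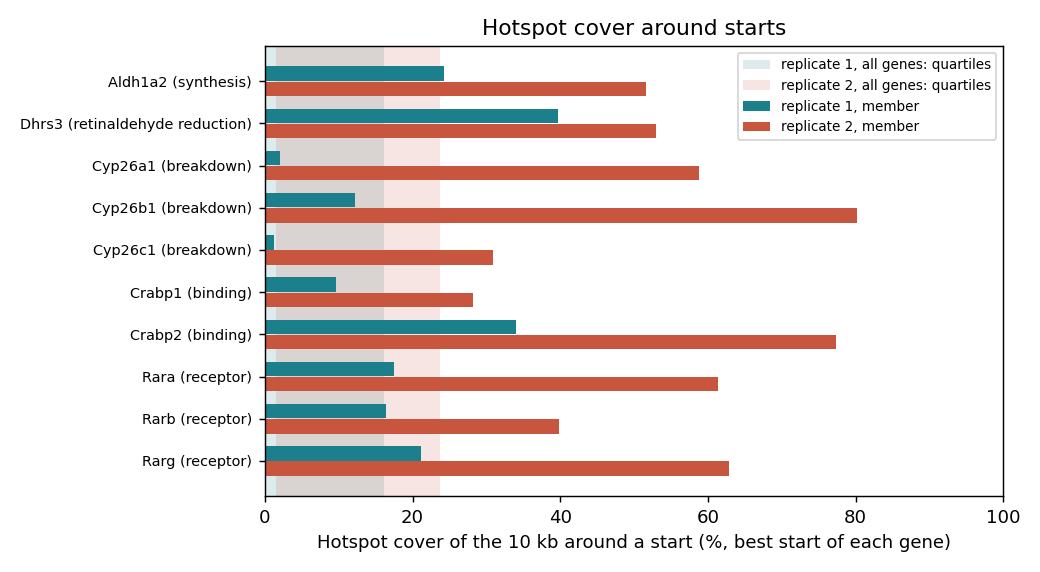
Share of the 10 kb around a start covered by hotspots (x axis, percent, the best covered start of each gene), for replicate 1 and replicate 2. Shaded bands are the quartiles over all genes in each library, and all 10 replicate 2 bars reach past the band of replicate 2.

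Hotspots covered much of the sequence around these starts in replicate 2. In the 10 kb around the best covered start, cover ranged from 28.2% at Crabp1 to 80.1% at Cyp26b1 in replicate 2, with a median of 55.9%, and all 10 genes were above the upper quartile of all genes (23.8%). In replicate 1 it ranged from 1.27% at Cyp26c1 to 39.7% at Dhrs3, with a median of 16.9%, and 7 of 10 genes were above the median of all genes (9.68%). Below it were Cyp26c1, Cyp26a1 (2.01%) and Crabp1 (9.61%). The plot of hotspot cover shows the widest gap between libraries at Cyp26b1, with 12.3% and 80.1%, followed by Cyp26a1 with 2.01% and 58.8%. The narrowest was at Dhrs3, with 39.7% and 52.9%.

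Wide hotspots lay at most of these starts. In replicate 2, 9 of 10 genes had a start inside a hotspot of over 2 kb, against 21.2% of all genes, and in replicate 1 0 of 10 did, against 3.91%. So did all 10 hindbrain, all 6 neural progenitor, all 6 forebrain and 5 of 6 neuronal markers in replicate 2. Rara and Rarg had 2 such hotspots each, of which the wider was taken. The 9 taken had a median width of 4447 bp, and all 11 one of 3549 bp, beside 2514 bp over the 5547 hotspots of that size. Replicate 1 hotspots covered a median of 50.9% of each of the 9, beside 70.8% over all 5547. The 9 differed widely: the lowest were Cyp26a1 (0%), Rara (12.0%) and Cyp26b1 (16.3%), followed by Crabp1 (38.2%), Crabp2 (50.9%), Rarb (52.1%), Aldh1a2 (60.9%), Rarg (65.5%) and Dhrs3 (73.7%).

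**Figure D5:**
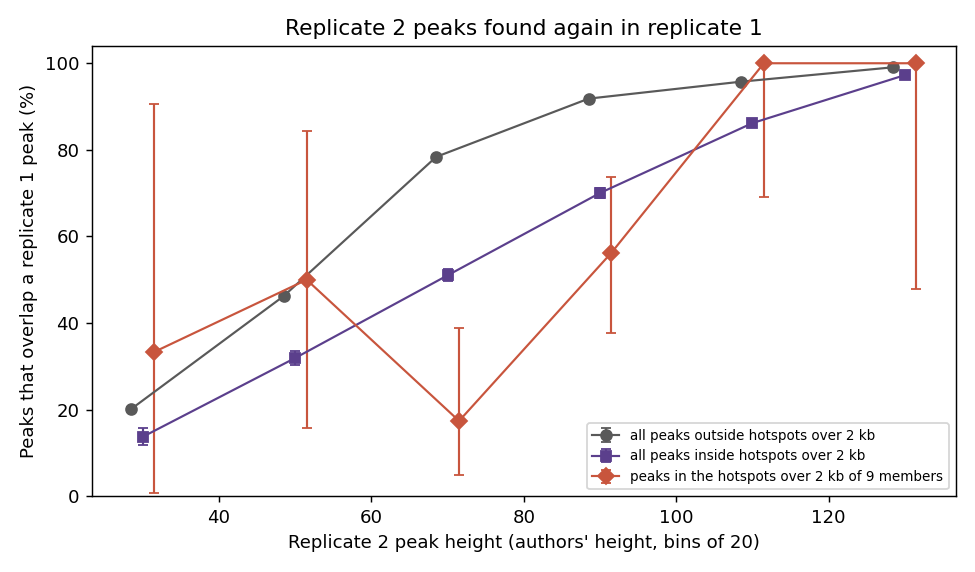
Share of replicate 2 peaks that overlap a replicate 1 peak (y axis, percent) by peak height in bins of 20 (x axis), for all peaks outside hotspots of over 2 kb, all peaks inside them and peaks inside the 9 members' hotspots. Bars are exact 95% intervals for counting error only. In the bin over 60 to 80, the members' point lies at 17.4%, below both other groups.

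The plot of overlap by height shows how far a replicate 2 peak's height went with its recovery in replicate 1. All peaks in the members' neighbourhoods of height over 60 to 80 overlapped a replicate 1 peak in 13 of 59 cases, against 73.4% of all replicate 2 peaks of that height. For heights over 80 to 100 it was 28 of 45, against 85.4%, and over 100 to 120 it was 18 of 19, against 92.2%. Wide hotspots as such had lower shares: inside those of any gene 51% of peaks over 60 to 80 and 70% of peaks over 80 to 100 overlapped a replicate 1 peak. Inside the members' 9 hotspots the counts were 4 of 23 (17.4%, exact Clopper-Pearson 95% interval 4.95% to 38.8%) and 18 of 32 (56.2%, 37.7% to 73.6%). The bins beside these did not lie lower than all wide hotspots: 4 of 8 peaks over 40 to 60 overlapped, against 31.9%, and 10 of 10 over 100 to 120, against 86.2%. Peaks of 1 hotspot share their source and are not independent, and the intervals cover counting error alone. Cyp26a1 gave 9 of these peaks and none of the overlaps.

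Genes that act with the 10 were read from a list of 35. All 12 receptor partners and cofactors had a promoter site in both libraries, as did 9 of 15 other synthesis and uptake genes and 4 of 8 known direct targets, 25 of 35 in all, against 65.9% of all genes. The 5 with the highest promoter peaks were Rxrb (122 and 136), Ppard (116 and 141), Ncoa2 (121 and 135), Adh5 (119 and 136) and Ncoa3 (112 and 141). Rxrb encodes a retinoid X receptor, and Ncoa2 and Ncoa3 encode coactivators. Genes of the list with no promoter peak in either library included Dhrs9, Adh7, Aldh1a1 and Aldh8a1 of synthesis and uptake, and Cdx1 and Stra8 of the targets. Aldh1a1, another retinaldehyde dehydrogenase, therefore differed from Aldh1a2, though 4 distal shared sites had it as nearest gene. Absence of a peak says that none was called, at a depth that is unknown.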

How the data were processed

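DNase-seq peaks and hotspots of 2 hindbrain libraries were used as deposited. Per the text beside the files, the authors aligned reads to mm10 and called each library separately. Aligner, callers and depth: not given in the sources used here. Each deposited peak height is a score from 1 to 149 whose scaling is not stated. The deposited hotspot value is the −log10 of a false discovery rate, written as 100 above a limit. Repeated records were dropped (32 in replicate 1 and 60 in replicate 2). Peaks of both libraries were merged at an overlap of at least 1 bp and given to GENCODE M21 protein-coding starts. Starts within 200 bp were joined for the values per start. Bases came from GRCm38.p6, and promoter windows from RefSeq on the same build (15 promoters of 9 members). Python 3.11.15, numpy 2.4.6, pandas 2.3.3, scipy 1.17.1 and matplotlib 3.10.9 were used. Merging, assignment and motif search were tested on simulated data. All members, the pathway genes without a promoter peak and the 5 highest by mean percentile are named, apart from an item that is not reported here. Members and lists were chosen with earlier results of these data known. Alternatives changed the windows, the overlap, the peaks used, the library and the motif.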

Additional observations from a re-analysis of the deposited data

How the results depend on the processing

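Of 107 values of the summary counts recomputed under alternatives, 84 stayed near the value given and 23 moved, and 29 of 120 values of single genes moved. Near was a loose rule: a distal sum of 74 in place of 56 and a binding count of 16 in place of 11 passed as near. The number of members with a shared promoter site (8) was 8 or 9 where both libraries were used. In replicate 1 alone 8 members had a promoter peak, and in replicate 2 alone 10. The number of pathway genes (25) ranged from 23 to 29. The median promoter percentile of the members with a peak under each setting (92.1 over 8, SD between libraries 2.42) ranged from 90.5 to 92.9, the latter over all 10 in replicate 2 alone. The 56 distal shared sites became 36 with a promoter window of 2500 bp, 37 with peaks above the library's median height and 34 with hotspots in place of peaks. With that wider window synthesis had 2, retinaldehyde reduction 4 and binding 6. With the higher peaks the median per gene was 2.5, and synthesis and reduction had 2 each. With hotspots synthesis had 2, reduction 4 and binding 5. An overlap of at least 75 bp left 5 for reduction and 6 for binding, and a limit of 200 kb gave breakdown 22. With 1 mismatch allowed, 4 members in place of 2 had a repeat of spacing 5 in a site. Each library alone (replicate 1, then replicate 2) gave distal sums of 74 and 176, medians of 6.5 and 15, synthesis 5 and 12, reduction 9 and 15, breakdown 18 and 58, binding 16 and 20, and receptors 26 and 71. No paired analysis was possible because both libraries belong to 1 group. Without a known depth, a missing peak cannot be told from shallow sampling.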
